A study of Danio rerio with 12 samples.

Results

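The genes described here encode proteins of the extracellular matrix and their main receptors, the integrins: collagens, laminins, nidogens, fibronectins, fibulins, fibrillins, SPARC family proteins, tenascin-C, versicans, link proteins, matrilins and integrin chains. They were chosen by their symbol on the array's annotation, by a rule written with earlier results of these data known. A symbol had to begin with one of these family names, a probe set (the array's unit of measurement) had to carry a single symbol, and where a gene had more than 1, the brightest on average across the 12 arrays stood for it. This gave 201 probe sets of 111 genes, out of 20635 named genes on the array. Another 21 probe sets carry several symbols of which at least 1 is from these families, and they were not used here, so *hspg2*, *itga9* and *itgb1b* were not analysed. Some of them belong to genes that were analysed on a dimmer probe set. For *nid2b* the unused one, which also carries other symbols, had a mean log2 signal of 8.28, and the one used 2.52. For *lamb1a* the means were 9.98 and 9.57, and for *vcana* the brightest unused one had 9.86 and the one used 9.36.

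Basement membranes are thin sheets of laminin and collagen IV networks joined by nidogen, which underlie epithelia and wrap the notochord and muscle, and interstitial matrix is made of collagen fibrils, fibronectin, hyaluronan and its proteoglycans. Integrins, each an alpha and a beta chain, hold cells to these proteins. In the zebrafish embryo, Fibronectin is assembled around the somites, the blocks that give rise to muscle and vertebrae, and its receptor Integrin alpha5 is needed for their borders. Laminin chains encoded by *lamb1a* and *lamc1* are needed for the sheath of the notochord. In mouse embryos, loss of Dmrt2 disturbs the patterning of somites and their extracellular matrix.

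RNA was measured in microdissected pieces in 4 groups of 3 arrays, each from a pool of 100 pieces: Region 1 (somites with the tissue around them) of Tg(hsp70:HA-*dmrt2a*) embryos, Region 1 of wildtype control embryos, Region 2 (tailbud, presomitic mesoderm and the LRO, the left-right organiser) of transgenic embryos, and Region 2 of wildtype control embryos. All 4 groups, controls included, were of Tübingen background and were heat-shocked at bud-stage at 39 °C for 30 min, raised at 28 °C, and dissected in a window of 30 min that opened 2 h later, with 3 to 4 somites formed. The transgene is a single-copy insertion whose heat-shock promoter acts in all tissues, and the transgenic embryos came from outcrosses of homozygous fish. Values are log2 signals as deposited, transgenic and control arrays of a region were compared with limma on 6 arrays, and a gene was called at an adjusted p under 0.05, with no minimum fold.

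The *dmrt2a* probe set read 8.74, 8.75 and 8.74 on the Region 1 transgenic arrays, against 8.45, 8.36 and 8.35 on the Region 1 control arrays. It read 8.75, 8.70 and 8.84 on the Region 2 transgenic arrays, against 7.36, 7.41 and 7.33 on the Region 2 control arrays. The arrays of the groups did not overlap in either region, but only Region 2 passed the test (log2 difference 0.35, adjusted p = 0.0991 in Region 1 and 1.40, adjusted p = 0.00352 in Region 2), and the values do not tell the transgene from the endogenous gene. Arrays of 1 group correlated at 0.988 or more. The median log2 signal was 3.47 to 3.49 on the Region 1 arrays and 3.29 to 3.32 on the Region 2 arrays. The tissue labels could be checked in the control pieces, where 4 of 5 measured somite and muscle markers were higher in Region 1 and all 6 tailbud and presomitic mesoderm markers were higher in Region 2. Of 3 left-right organiser markers, 2 were higher in Region 1, against the label, and their summed log2 signal was 15.98 to 16.29 on the Region 1 control arrays and 17.12 to 17.54 on the Region 2 control arrays.

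Few matrix and integrin genes were called with the transgene, and none by 2-fold. In Region 1, 0 of the 111 genes rose and 1 fell, *hapln1b*. In Region 2, 0 rose and 1 fell, *itgb4*. Over all 75212 probe sets, 0.162% were called higher and 0.344% lower in transgenic pieces of Region 1, and 0.0678% higher and 0.400% lower in those of Region 2. Over the 20635 named genes the shares were 0.310% and 0.645% in Region 1 and 0.141% and 0.872% in Region 2. With 0.901% of the members called lower in each region, their share was near this background, but it rests on 1 gene in each. The median log2 difference of the 111 genes was -0.013 in Region 1 and -0.0025 in Region 2, beside 0.012 and -0.00086 over the named genes. At an unadjusted p under 0.05, 15 members were higher and 19 lower in Region 1, and 7 were higher and 12 lower in Region 2. At that level 9.33% of the named genes were higher and 6.74% lower in Region 1, and 5.34% were higher and 7.96% lower in Region 2. As shares of the 111, the members' counts were above these in both directions and regions, most of all for members lower in Region 1. With any 1 of the 6 arrays of a region left out, none of the members was called, and the calls over all probe sets were 30 to 46 in Region 1, where the 6 arrays gave 381, and 16 to 78 in Region 2, where they gave 352.

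The values on single arrays were also compared. In Region 1 all transgenic arrays lay above all control arrays for 17 members and below them for 20, where 15.3% and 11.2% of the named genes did so. In Region 2 the counts were 11 above and 15 below, against 10.4% and 12.8% of the named genes. As shares of the 111, the count below in Region 1 exceeded that of the named genes, and the other counts were near theirs. An effect under 0.2 in size, on the log2 scale, was seen in both regions for 68 of the 111 genes.

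*hapln1b* encodes a link protein, which ties proteoglycans such as versican to hyaluronan. Its log2 signal was 8.63, 8.64 and 8.64 on the Region 1 transgenic arrays, against 9.23, 9.21 and 9.16 on the Region 1 control arrays. In Region 2 it was 7.77, 7.67 and 7.71 on the transgenic arrays, against 8.14, 8.31 and 8.31 on the control arrays. Every transgenic array was thus below every control array of its region. The difference was -0.56 (SE 0.061), 1.48-fold lower, in Region 1 (adjusted p = 0.0264) and -0.54 (SE 0.078), 1.45-fold lower, in Region 2 (adjusted p = 0.0579), just outside the threshold. With the spread estimated over all 12 arrays in 1 fit, Region 2 passed too (adjusted p = 0.00149). The 2 effects differed by 0.025 (SE 0.090, adjusted p = 0.965). The call in Region 1 rests on all 6 arrays, since leaving out any 1 of them gave differences from -0.59 to -0.55 with adjusted p from 0.110 to 0.126.

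The paralog *hapln1a* had a difference of the opposite sign in Region 1, which did not pass the test. It read 7.74, 7.83 and 7.83 on the Region 1 transgenic arrays, against 7.38, 7.46 and 7.39 on the Region 1 control arrays, a difference of 0.39 (SE 0.067, adjusted p = 0.0840). In Region 2 the values overlapped, at 6.51, 6.75 and 6.85 on the transgenic arrays and 6.73, 6.79 and 6.88 on the control arrays (difference -0.097, SE 0.11). The test of the difference between the effects, Region 2 minus Region 1, gave -0.49 (adjusted p = 0.206). Its second, dimmer probe set gave a similar difference in Region 1 (0.42, adjusted p = 0.172). With limma's trend and robust spread, with the brighter probe sets alone or with the probe sets of 1 symbol alone, *hapln1a* was called in Region 1 (adjusted p = 0.0173, 0.0240 and 0.0191).

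*itgb4* encodes the beta chain that pairs with alpha6 in the hemidesmosomes of epithelial cells and binds laminin. In Region 2 it read 5.46, 5.42 and 5.48 on the transgenic arrays, against 5.91, 5.93 and 5.97 on the control arrays. The difference was -0.48 (SE 0.065), 1.40-fold lower (adjusted p = 0.0471), and it lost the call without any 1 of the 6 arrays (adjusted p from 0.147 to 0.197) and after quantile normalization or median centring (0.0547 and 0.0587). In Region 1 it read 5.01, 5.04 and 5.05 on the transgenic arrays, against 5.15, 5.28 and 5.20 on the control arrays, a difference of -0.18 (SE 0.067, adjusted p = 0.354). Of its 3 other probe sets, the next brightest gave -0.36 in Region 2 and the dim ones -0.055 and 0.033, and the mean of all 4 gave -0.22 (adjusted p = 0.346). None of the 6 measured epidermal markers was called in Region 2, where their summed log2 signal was 59.06 to 59.43 on the transgenic arrays and 59.74 to 59.97 on the control arrays, with a median difference of -0.10. Their part in the *itgb4* value was not tested.

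Pieces were not sorted, so a lower signal from fewer cells of a type and one from less RNA per cell cannot be told apart. In Region 1, 3 of 6 tailbud and presomitic mesoderm markers rose, and their summed log2 signal was 44.43 to 45.07 on the transgenic arrays and 42.32 to 42.66 on the control arrays. In Region 1, 2 of 6 angioblast and blood markers and 1 of 5 neural crest markers fell. The median difference of these 6 angioblast and blood markers was 0.15 there, and 3 of them were higher at an unadjusted p under 0.05 in limma. In Region 2, 2 of 6 angioblast and blood markers fell, as did 1 of 5 somite markers and 1 of 4 hindbrain and head markers. The summed signal of the angioblast and blood markers was 32.25 to 32.86 on the Region 2 transgenic arrays and 36.54 to 36.93 on the control arrays. Much of that gap came from *etv2* (4.35, 4.14 and 3.92 against 7.01, 7.16 and 7.23) and *tal1* (6.22, 6.35 and 6.47 against 7.66, 7.64 and 7.64). *kdrl* went the other way (4.02, 4.38 and 4.45 against 3.78, 3.93 and 3.62), so the sum does not describe the tissue as a whole. The part of these tissues in the differences of matrix genes was not tested.

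**Figure D1:**
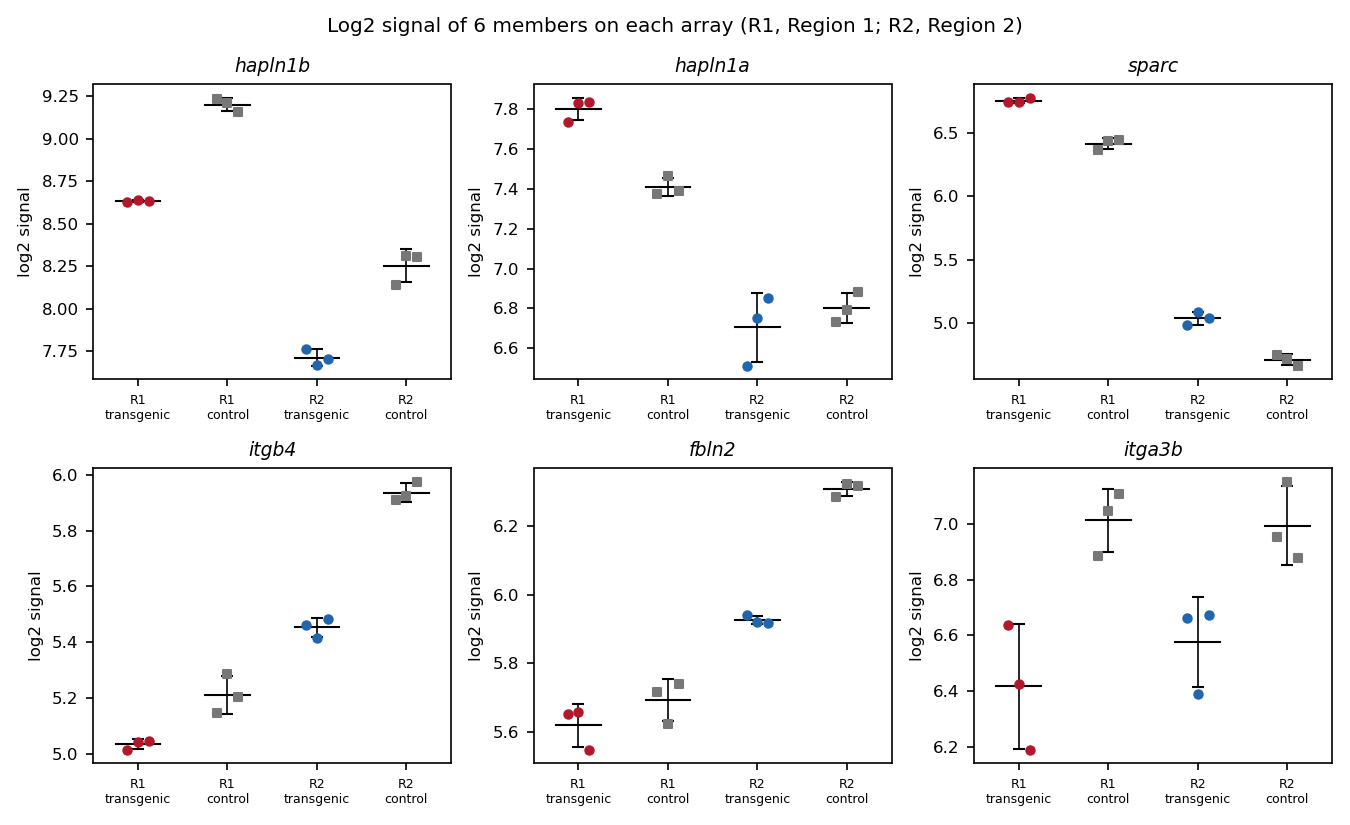
Log2 signal (vertical axis) of *hapln1b*, *hapln1a*, *sparc*, *itgb4*, *fbln2* and *itga3b* on each array; circles are transgenic arrays, squares control arrays, long bars group means and whiskers SD (n = 3). In *hapln1b* the transgenic arrays lie below the control arrays of their region, at 8.63 to 8.64 against 9.16 to 9.23 in Region 1, and in *sparc* they lie above them in both regions.

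Several genes had similar differences in both regions without passing in either, so the mean of the 2 effects was fitted over all 12 arrays, a comparison added after the values had been seen. It called 4 members higher and 8 lower in transgenic pieces, 3.60% and 7.21% of the 111, beside 2.39% and 3.58% of the named genes. The lower genes were *hapln1b*, *itgb4*, *itga3b*, *fbln2*, *itga4*, *itga5*, *col4a1* and *col4a2*, and the higher ones *sparc*, *col8a1a*, *lama4* and *itga6b*. With each of the 12 arrays left out in turn, 5 of these kept the call every time: *hapln1b*, *sparc*, *itgb4*, *itga3b* and *fbln2*. Of them, *itga3b* and *fbln2* lost it with the replicate number as a block within each region. Each of the other 7 lost it in at least 8 of these 12 fits, and *itga6b* in all of them. With the dimmest probe set of each gene 5 of the 12 calls were left, and with the mean of all its probe sets 6, and in both cases *sparc*, *itgb4* and *fbln2* were not among them.

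*sparc* encodes a glycoprotein that binds collagen and is made by cells that lay down basement membrane. Its log2 signal was 6.74, 6.75 and 6.78 on the Region 1 transgenic arrays, against 6.37, 6.44 and 6.45 on the Region 1 control arrays. In Region 2 it was 4.98, 5.09 and 5.03 on the transgenic arrays, against 4.75, 4.71 and 4.66 on the control arrays. All transgenic arrays were above all control arrays in each region. The differences were 0.34 (SE 0.062, adjusted p = 0.102) in Region 1 and 0.33 (SE 0.069, adjusted p = 0.150) in Region 2, and the mean effect was 0.33 (SE 0.041, adjusted p = 0.00111), 1.26-fold. Its 2 other probe sets did not give 1 direction in Region 1, with differences of -0.028 and 0.41.

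*fbln2* encodes a secreted protein of microfibrils and basement membranes. In Region 2 it read 5.94, 5.92 and 5.92 on the transgenic arrays, against 6.28, 6.32 and 6.32 on the control arrays (difference -0.38, SE 0.062, adjusted p = 0.0790). In Region 1 the arrays overlapped, at 5.65, 5.66 and 5.55 on the transgenic arrays and 5.72, 5.62 and 5.74 on the control arrays (difference -0.074, SE 0.070). On this probe set the mean effect of -0.23 (adjusted p = 0.0131) was mostly that of Region 2. The difference between the effects did not pass its test (-0.31, adjusted p = 0.240). The next brightest probe set of *fbln2* gave -0.18 in each region, and the dimmest gave 0.036 in Region 1 and -0.12 in Region 2.

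Among the integrin alpha chains, *itga3b*, a laminin receptor chain, had the largest difference of all members in Region 1. It read 6.64, 6.43 and 6.19 on the Region 1 transgenic arrays, against 6.89, 7.04 and 7.10 on the Region 1 control arrays. The arrays did not overlap, but the transgenic ones were spread over 0.22 (SD), and the difference of -0.59 (SE 0.13) did not pass (adjusted p = 0.143). Region 2 gave 6.66, 6.39 and 6.67 on the transgenic arrays and 6.95, 7.15 and 6.88 on the control arrays (difference -0.42, SE 0.11, adjusted p = 0.255). The mean effect was -0.50 (SE 0.089, adjusted p = 0.0112).

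*itga5* and *itga4* encode alpha chains that bind Fibronectin. *itga5* read 7.50, 7.16 and 7.23 on the Region 1 transgenic arrays, against 7.77, 7.73 and 7.60 on the Region 1 control arrays (difference -0.40, SE 0.11, adjusted p = 0.208). In Region 2 it read 7.65, 7.58 and 7.87 on the transgenic arrays and 7.85, 8.13 and 8.01 on the control arrays, which overlapped (difference -0.30, SE 0.11). Its second probe set had its larger difference in Region 2 (-0.46, adjusted p = 0.0773) and a smaller one in Region 1 (-0.13). *itga4* had differences of -0.30 (SE 0.069) in Region 1 and -0.35 (SE 0.12) in Region 2, with no overlap of arrays in either. The mean effects were -0.35 (SE 0.080, adjusted p = 0.0402) for *itga5* and -0.32 (SE 0.070, adjusted p = 0.0321) for *itga4*.

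The laminin receptor chain *itga6b* was the alpha chain with the most positive difference in Region 1 (0.28, SE 0.064, adjusted p = 0.162), and its difference in Region 2 was 0.074. The shared beta chain *itgb1a* read 7.44, 7.39 and 7.47 on the Region 1 transgenic arrays, against 7.12, 7.17 and 7.24 on the Region 1 control arrays (difference 0.26, SE 0.066, adjusted p = 0.195), and in Region 2 the arrays overlapped (difference 0.047). *itgb1bp1*, which encodes a protein that binds the inner tail of the beta1 chain and is no integrin itself, had differences of 0.28 in Region 1 and 0.092 in Region 2. None of these 3 passed in a single region. Over the 15 alpha chains the median difference was -0.048 in Region 1 and -0.0025 in Region 2, and over the 10 beta chains 0.053 and -0.082.

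Basement membrane genes gave small differences. *col4a1* and *col4a2* encode the most widespread chains of collagen IV and are neighbours in the genome. *col4a1* read 5.53, 5.47 and 5.52 on the Region 1 transgenic arrays against 5.72, 5.75 and 5.66 on the Region 1 control arrays, and 3.61, 3.72 and 3.64 on the Region 2 transgenic arrays against 3.82, 3.89 and 4.09 on the Region 2 control arrays. *col4a2* read 4.71, 4.65 and 4.65 on the Region 1 transgenic arrays against 4.93, 4.88 and 4.89 on the Region 1 control arrays, and 2.93, 2.91 and 3.15 on the Region 2 transgenic arrays against 3.17, 3.28 and 3.28 on the Region 2 control arrays. On these probe sets, transgenic arrays of both genes were below control arrays in each region, with a mean effect of -0.24 for each (SE 0.053 and 0.052, adjusted p = 0.0368 and 0.0311). The second, dimmer probe set of *col4a1* gave -0.011 in Region 1 and 0.16 in Region 2. The pair *col4a5* and *col4a6* (the second named after its values were seen), also neighbours, had differences from -0.092 to 0.078 in both regions.

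*lama4*, a laminin alpha chain known from vessel walls, had differences of 0.23 (SE 0.093) in Region 1 and 0.25 (SE 0.068) in Region 2, and *col8a1a*, a network collagen needed for the notochord of zebrafish, had 0.25 (SE 0.081) and 0.33 (SE 0.097). For both genes the transgenic arrays were above the control arrays in each region. The nidogen *nid1a*, which links laminin to collagen IV, had a difference of 0.25 in Region 1 and -0.094 in Region 2. *nid2b* had -0.34 and -0.056, at a mean log2 signal of 2.52, below the array median. No nidogen passed a test of the transgene.

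The laminin genes best known for the sheath of the notochord, *lamb1a* and *lamc1*, had small differences. *lamb1a* read 9.63, 9.65 and 9.59 on the Region 1 transgenic arrays, against 9.57, 9.61 and 9.64 on the Region 1 control arrays (difference 0.014, SE 0.061). *lamc1* read 9.48, 9.51 and 9.55 on the Region 1 transgenic arrays, against 9.61, 9.59 and 9.60 on the Region 1 control arrays, without overlap. Its differences were -0.088 (SE 0.061) in Region 1 and -0.039 (SE 0.063) in Region 2, where the arrays overlapped. The paralog *lamb1b* had 0.0012 (SE 0.064) and -0.030 (SE 0.094). Its mean log2 signal was 2.95, below the array median, and the values carry no detection call, so its differences say little about the gene. None of these passed the test, and the differences had standard errors of 0.061 to 0.094. *lama1* was not analysed here.

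*fn1a* and *fn1b* encode the 2 fibronectins. *fn1a* read 9.0, 9.08 and 9.06 on the Region 1 transgenic arrays, against 9.24, 9.19 and 9.17 on the Region 1 control arrays (difference -0.15, SE 0.063, adjusted p = 0.397). *fn1b* read 10.40, 10.33 and 10.43 on the Region 1 transgenic arrays, against 10.21, 10.26 and 10.12 on the Region 1 control arrays (difference 0.19, SE 0.070, adjusted p = 0.349). The arrays of *fn1a* and of *fn1b* thus separated in opposite directions in Region 1, and neither difference passed the test. In Region 2 the differences were -0.042 (SE 0.064) for *fn1a* and 0.13 (SE 0.066) for *fn1b*. All 3 probe sets of *fn1b* had positive differences in both regions, from 0.021 to 0.34. The second, dimmer probe set of *fn1a* did not share the negative sign, with 0.011 in Region 1 and 0.29 in Region 2.

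**Figure D2:**
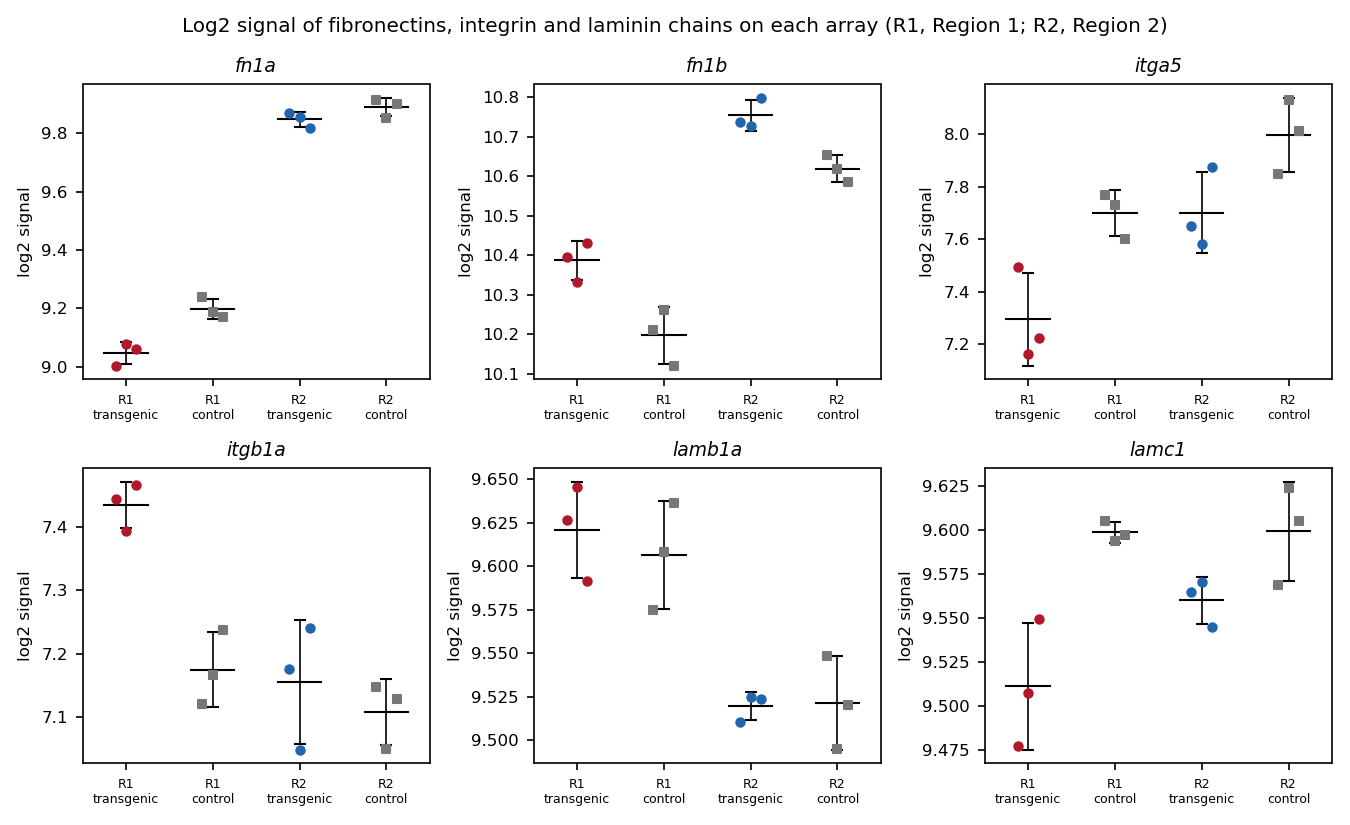
Log2 signal (vertical axis) of *fn1a*, *fn1b*, *itga5*, *itgb1a*, *lamb1a* and *lamc1* on each array; circles are transgenic arrays, squares control arrays, long bars group means and whiskers SD (n = 3). Transgenic arrays of *itga5* lie below the control arrays in Region 1 (difference -0.40), those of *lamb1a* overlap with them in both regions (differences 0.014 and -0.0017), and no panel shows a difference past the threshold within a region.

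Fibrillar collagens, the rods of interstitial matrix, had 0 of 14 genes called in either region. The cartilage and notochord collagen *col2a1a* read 6.53, 6.45 and 6.36 on the Region 1 transgenic arrays, against 6.04, 6.21 and 6.23 on the Region 1 control arrays (difference 0.29, SE 0.085, adjusted p = 0.250), and its arrays overlapped in Region 2 (difference 0.13). *col11a1b* and *col27a1b* had differences of -0.32 and -0.19 in Region 1 and -0.074 and 0.051 in Region 2. The collagens attached to fibrils or basement membranes also had no call among 21 genes, with a median difference of -0.0079 in Region 1 and -0.036 in Region 2. Their largest difference in Region 1 was that of *col12a1a* (-0.37, adjusted p = 0.234). The 3 transmembrane collagens, 4 SPARC and tenascin genes and 11 laminin chains had 0 calls each in both regions.

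No member passed limma's test for an effect that differed between the regions. At an adjusted p the count was 0 of 111, beside 0.191% of all probe sets and 0.388% of the named genes. At an unadjusted p under 0.05, 3 members had a more positive effect in Region 2 and 11 a more negative one, beside 3.86% and 7.81% of the named genes. The smallest p belonged to *col28a1b*, a collagen related to collagen VI. It read 3.06, 2.92 and 2.78 on the Region 2 transgenic arrays against 2.67, 2.56 and 2.62 on the Region 2 control arrays, and 2.58, 2.64 and 2.45 on the Region 1 transgenic arrays against 2.92, 2.80 and 2.76 on the Region 1 control arrays. The arrays separated upwards in Region 2 and downwards in Region 1 (difference of the effects 0.57, SE 0.12, adjusted p = 0.122), at a signal below the array median of 3.29 to 3.49. Among the beta integrins, 7 of 10 differences of the effects were negative, with a median of -0.24, beside -0.019 over the named genes. The effects had the same sign in both regions for 61 of 111 members, 55.0%, beside 57.2% of the named genes.

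**Figure D3:**
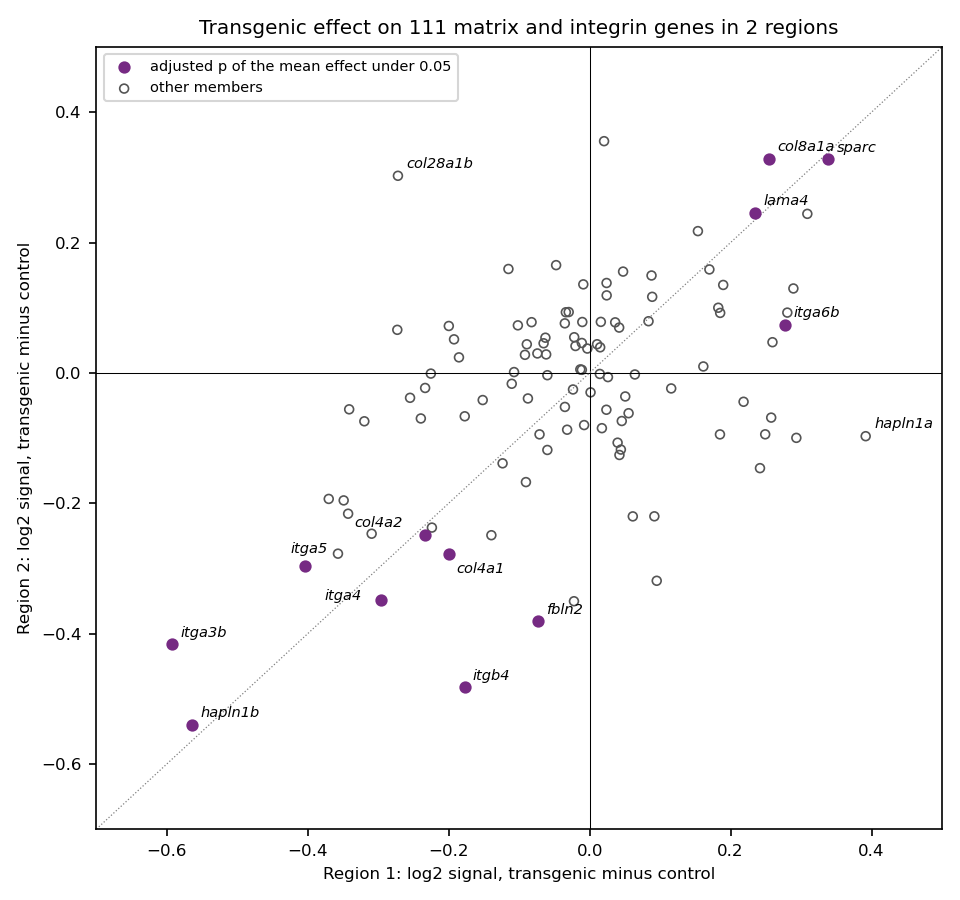
Transgenic minus control log2 signal of the 111 genes in Region 1 (horizontal axis) and Region 2 (vertical axis); filled points had an adjusted p under 0.05 for the mean of the 2 effects, and the dotted line marks equal effects. *hapln1b* lies at -0.56 and -0.54 and *sparc* at 0.34 and 0.33, both near the line, while *col28a1b* and *hapln1a* have effects of opposite sign in the 2 regions.

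Far larger differences than those with the transgene separated the 2 regions. Between the control pieces, Region 1 minus Region 2, 45 of 111 members were higher in Region 1 and 16 higher in Region 2, and 12 and 2 of these by over 2-fold. Over all probe sets, 19.0% were higher in Region 1 and 8.68% in Region 2, and over the named genes 26.0% and 11.7%, with 2.85% and 1.33% past 2-fold. The members' shares were 40.5% and 14.4%, and 10.8% and 1.80% past 2-fold. Their median difference was 0.21, against 0.085 over the named genes. The median of all probe sets differs between the regions' arrays, and the sources used here do not say how the regions were scaled to each other. When each array was centred on its median, the median difference of all probe sets was -0.12, against 0.058 as deposited. The split of the members then became 30 higher in Region 1 and 29 in Region 2, and after quantile normalization 29 and 26. The matching split of all genes is not given here, so these counts do not compare the members with the rest. The members' median was above that of all probe sets by 0.15 as deposited and with centring, which moves all probe sets alike. After quantile normalization it was above by 0.060. Of the 61 calls, 46 held with centring and 45 with quantile normalization, none changed direction, and 13 and 10 other members gained a call.

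The regional difference was also measured between the transgenic arrays, which come from other pools. Their medians differed between the regions as well, at 3.47 to 3.48 in Region 1 and 3.29 to 3.32 in Region 2. Both comparisons also took their spread from the same fit over all arrays. Agreement between them therefore cannot check how the regions were scaled, and it shows only that the measured directions recurred in other pools. Of the 61 members called between the control pieces, all 61 had the same direction between the transgenic pieces and 47 passed there too. The matching share of the named genes was not counted. In all, 42 of 111 members were higher in Region 1 and 16 in Region 2 among the transgenic pieces, beside 27.7% and 10.0% of the named genes. *col28a1b* had opposite signs, with a difference of -0.36 between the transgenic pieces (adjusted p = 0.00996) and 0.21 between the control pieces (adjusted p = 0.0924).

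Basement membrane and network collagens stood highest in Region 1, with 5 of 10 genes called, all higher there and all by over 2-fold, and a median difference of 0.82 (0.63 after median centring). After median centring, and also after quantile normalization, 5 were higher and 1 lower. *col4a5* read 5.91, 5.92 and 5.90 on the Region 1 control arrays, against 3.72, 3.66 and 3.83 on the Region 2 control arrays (difference 2.17, SE 0.074, adjusted p = 7.46e-09), 4.51-fold. *col4a1* was 3.42-fold higher in Region 1. *col4a2* was higher by 1.66. The deposited values carry no detection call, so where a signal lay near or below the array median, as that of *col4a2* in Region 2, the difference is given as measured, with no fold, and counts past 2-fold are of such measured differences. *col4a6* was higher by 1.57, and 3 of its 4 probe sets gave 1.35 to 1.94, while the dimmest gave -0.18. *col4a3*, which encodes a chain restricted to a few basement membranes in mammals, lay just outside the threshold (difference 0.25, adjusted p = 0.0505). Both nidogens were also higher in Region 1, *nid1a* by 0.57 (SE 0.095) and *nid2b* by 0.60 (SE 0.094). The *nid2b* probe set had a mean log2 signal of 2.52, below the array median, and a brighter one with several symbols was not used.

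Laminin chains split. *lamb2l*, a beta chain gene, read 5.69, 5.64 and 5.87 on the Region 1 control arrays, against 2.87, 2.5 and 2.77 on the Region 2 control arrays, which is below the array median (difference 3.02, SE 0.099, adjusted p = 5.38e-09). Its neighbour *lamb2* was higher by 0.57 and *lama4* by 1.02. *lama2*, the alpha chain of muscle laminin, was lower in Region 1 by a difference of -0.65 (SE 0.072, adjusted p = 7.75e-05), and *lamb4* by -0.39. *lamb1a*, *lamc1* and *lamb1b* did not pass (0.085, -0.00063 and -0.14), although after median centring *lamc1* (-0.18, adjusted p = 0.0221) and *lamb1b* (-0.32, adjusted p = 0.00800) were called lower in Region 1. The mean signal of *lamb1b* lay below the array median. The median of the 11 chains, 0.085, turned to -0.097 with median centring. *lamb1a* and its neighbour *lamb4* had differences of 0.085 and -0.39.

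Among the collagens attached to fibrils or basement membranes, *col15a1b* read 6.22, 6.44 and 6.50 on the Region 1 control arrays, against 3.18, 3.45 and 3.38 on the Region 2 control arrays, which is about the array median (difference 3.05, SE 0.10, adjusted p = 6.79e-09), and all 5 of its probe sets gave 1.87 to 3.05. Its paralog *col15a1a* was called lower in Region 1 on the brightest of its 3 probe sets, with 6.57, 6.89 and 6.60 on the Region 1 control arrays and 7.17, 6.94 and 7.12 on the Region 2 control arrays (difference -0.39, SE 0.10, adjusted p = 0.0181), a call that held without 2 of the 6 control arrays and was lost without each of the other 4. Its 2 other probe sets gave -0.015 and -0.099 (adjusted p = 0.893 and 0.494), so the call rests on 1 of 3. *col9a2*, a cartilage and notochord collagen, was higher in Region 1 (difference 1.35, SE 0.15). In total 8 of the 21 were higher in Region 1 and 1 lower, and with median centring 3 and 4.

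Fibrillar collagens were called higher in Region 1 for 8 of 14 genes and lower for 0 (5 and 0 after median centring). *col2a1a* was 4.54-fold higher (difference 2.18, SE 0.097, adjusted p = 6.01e-08) and *col11a1a*, which packs into the same fibrils, 1.94-fold (difference 0.95, SE 0.086). The chains of collagen I, the main collagen of skin and bone, showed little: *col1a1b* was higher by 0.37 (adjusted p = 0.0132) and lost the call with median centring, and *col1a1a* did not pass (-0.16). Of 5 notochord markers, 2 were higher and 2 lower in Region 1, with summed log2 signals of 35.79 to 36.29 on the Region 1 control arrays and 37.52 to 38.02 on the Region 2 control arrays; their part in the collagen differences was not tested.

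**Figure D4:**
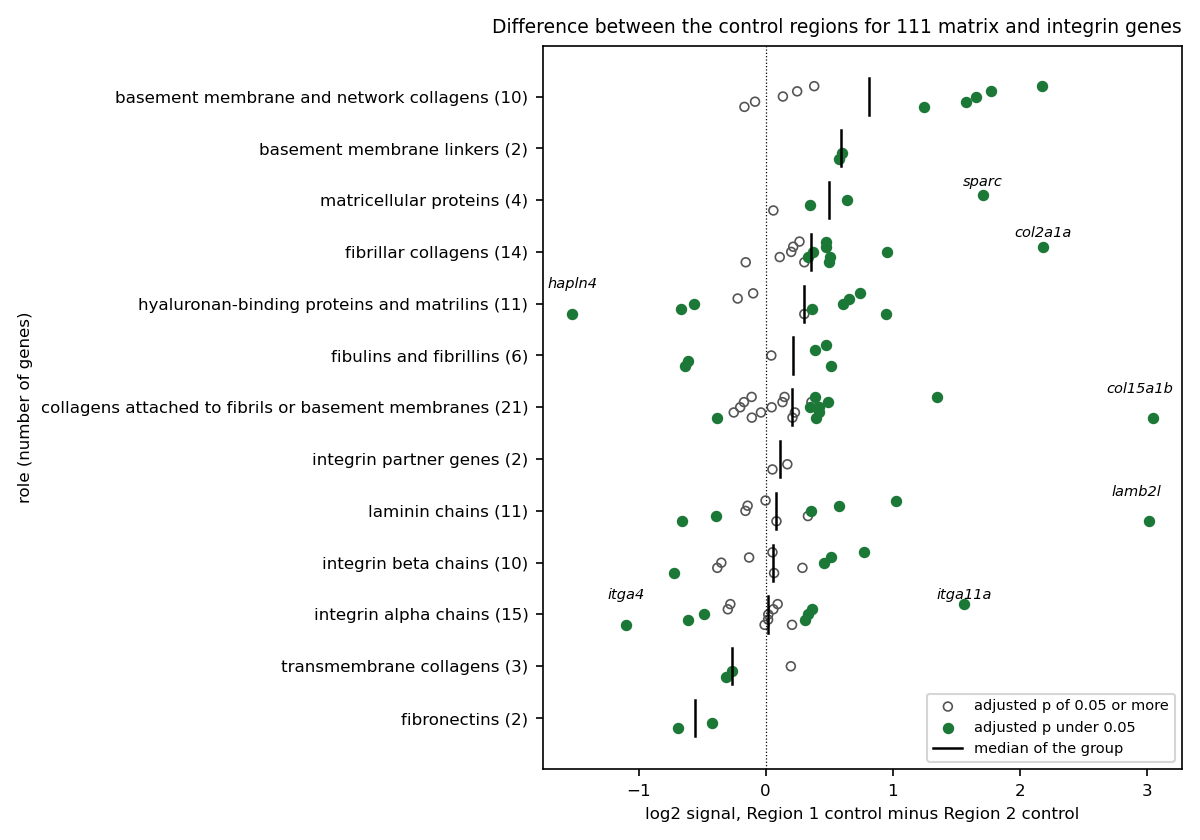
Log2 signal, Region 1 control minus Region 2 control (horizontal axis), of the 111 genes by role (vertical axis, with the number of genes); filled points had an adjusted p under 0.05 and bars are medians. Basement membrane and network collagens have the highest median of the roles with over 2 genes (0.82) and both fibronectins lie below 0.

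Both fibronectin genes were lower in Region 1. *fn1a* read 9.24, 9.19 and 9.17 on the Region 1 control arrays, against 9.92, 9.85 and 9.90 on the Region 2 control arrays (difference -0.69, SE 0.054, adjusted p = 5.74e-06). *fn1b* read 10.21, 10.26 and 10.12 on the Region 1 control arrays, against 10.65, 10.62 and 10.59 on the Region 2 control arrays (difference -0.42, SE 0.061, adjusted p = 0.000498). Both were lower in Region 1 on every probe set, of which *fn1a* has 2 and *fn1b* 3. Of the fibulins, *fbln1* was lower in Region 1 by a difference of -0.64 (SE 0.065) and *fbln2* by -0.61 (SE 0.059), while the dimmest of the 3 *fbln2* probe sets gave 0.58 (adjusted p = 0.00167). The fibrillins *fbn2b* (0.48, SE 0.052) and *fbn2a* (0.51, SE 0.092), which build microfibrils, were higher in Region 1.

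The hyaluronan matrix differed by member. *hapln1b* was 1.93-fold (difference 0.95, SE 0.064), *vcana*, a versican, 1.67-fold (0.74, SE 0.069) and *hapln1a* 1.52-fold (0.61, SE 0.087) higher in Region 1. *hapln4*, the link protein of the nervous system in mammals, read 3.41, 3.21 and 3.24 on the Region 1 control arrays, against 4.68, 4.95 and 4.80 on the Region 2 control arrays (difference -1.52, SE 0.11, adjusted p = 2.50e-06), with its Region 1 signal below the array median. *matn3a* was higher by 0.66 and *matn4* lower by a difference of -0.67, both matrilins, which bridge collagen fibrils. *hapln1a* and *vcana* neighbour each other, as do *hapln1b* and *vcanb*, and in both pairs the link protein gene alone had a transgenic difference over 0.3 in size, in Region 1. That of *hapln1a* did not pass its test. *vcanb* had a mean log2 signal of 3.19, below the array median, so its small difference says little. The dimmest of 3 probe sets of *vcana* did not share the regional direction (-0.18, adjusted p = 0.405).

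Integrin chains were divided between the regions. The collagen receptor chain *itga11a* read 4.12, 3.96 and 4.1 on the Region 1 control arrays, against 2.53, 2.51 and 2.45 on the Region 2 control arrays (difference 1.57, SE 0.080, adjusted p = 1.73e-07). *itga4* read 4.37, 4.35 and 4.43 on the Region 1 control arrays, against 5.65, 5.39 and 5.40 on the Region 2 control arrays (difference -1.10, SE 0.099, adjusted p = 1.73e-05), and *itga6b* (-0.61) and *itgae.1* (-0.49, at log2 signals of 1.56 to 2.25 on the control arrays) were also lower in Region 1. All 6 angioblast and blood markers were lower in Region 1 as well, with summed log2 signals of 30.45 to 30.83 on the Region 1 control arrays and 36.54 to 36.93 on the Region 2 control arrays; their part in these integrin values was not tested. *itga5* lay outside the threshold (-0.30, adjusted p = 0.0735), but its second probe set was called lower in Region 1 (-0.39, adjusted p = 0.00072), as was the first after median centring (-0.48) and quantile normalization (-0.36).

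Of the beta chains, *itgb3b* (0.77, SE 0.10), *itgb6* (0.52, SE 0.085) and *itgb8* (0.46, SE 0.12), which in mammals pair with alphaV, were higher in Region 1. *itgb8* lost the call after median centring (adjusted p = 0.0831) and quantile normalization (0.133). *itgb4* was lower in Region 1, at 5.15, 5.28 and 5.20 on the Region 1 control arrays against 5.91, 5.93 and 5.97 on the Region 2 control arrays (difference -0.72, SE 0.058, adjusted p = 6.32e-06). The paralog *itgb3a* did not pass (-0.38, adjusted p = 0.0789), and neither did *itgb1a* (0.067). The hemidesmosome collagens *col17a1a* and *col17a1b* were called lower in Region 1 too (-0.26 and -0.31), at mean log2 signals of 2.66 and 2.61, below the array median. With 1 control array left out, these calls held in 3 and 4 of 6 fits. The 2 dimmer probe sets of *col17a1b* disagreed, with 0.37 (adjusted p = 0.0356) and -0.20 (adjusted p = 0.271). Of 6 epidermal markers, 4 were lower in Region 1. Medians over the alpha (0.021) and beta (0.060) chains were near 0, and both were negative after median centring (-0.16 and -0.12). With 3 beta chains higher and 1 lower in Region 1 as deposited, the split was 2 and 4 after median centring and 2 and 3 after quantile normalization.

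Among the matricellular proteins, *sparc* was 3.28-fold higher in Region 1 (difference 1.71, SE 0.057, adjusted p = 6.45e-09), which is larger than its transgenic difference of 0.34 in Region 1. All 3 of its probe sets were higher there (1.07 to 2.41). *tncb*, a tenascin-C, was higher by 0.64 (SE 0.16, adjusted p = 0.0135) and *sparcl1* by 0.35, and the call was lost for *tncb* after quantile normalization (adjusted p = 0.0591) or without Region 2 control array 2 (0.0503), and for *sparcl1* after median centring (0.101). Of 15 members called between the control regions that had over 1 probe set with a mean log2 signal of 4 or more, 14 had the same direction on all of these, and *vcana* was the exception.

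**Figure D5:**
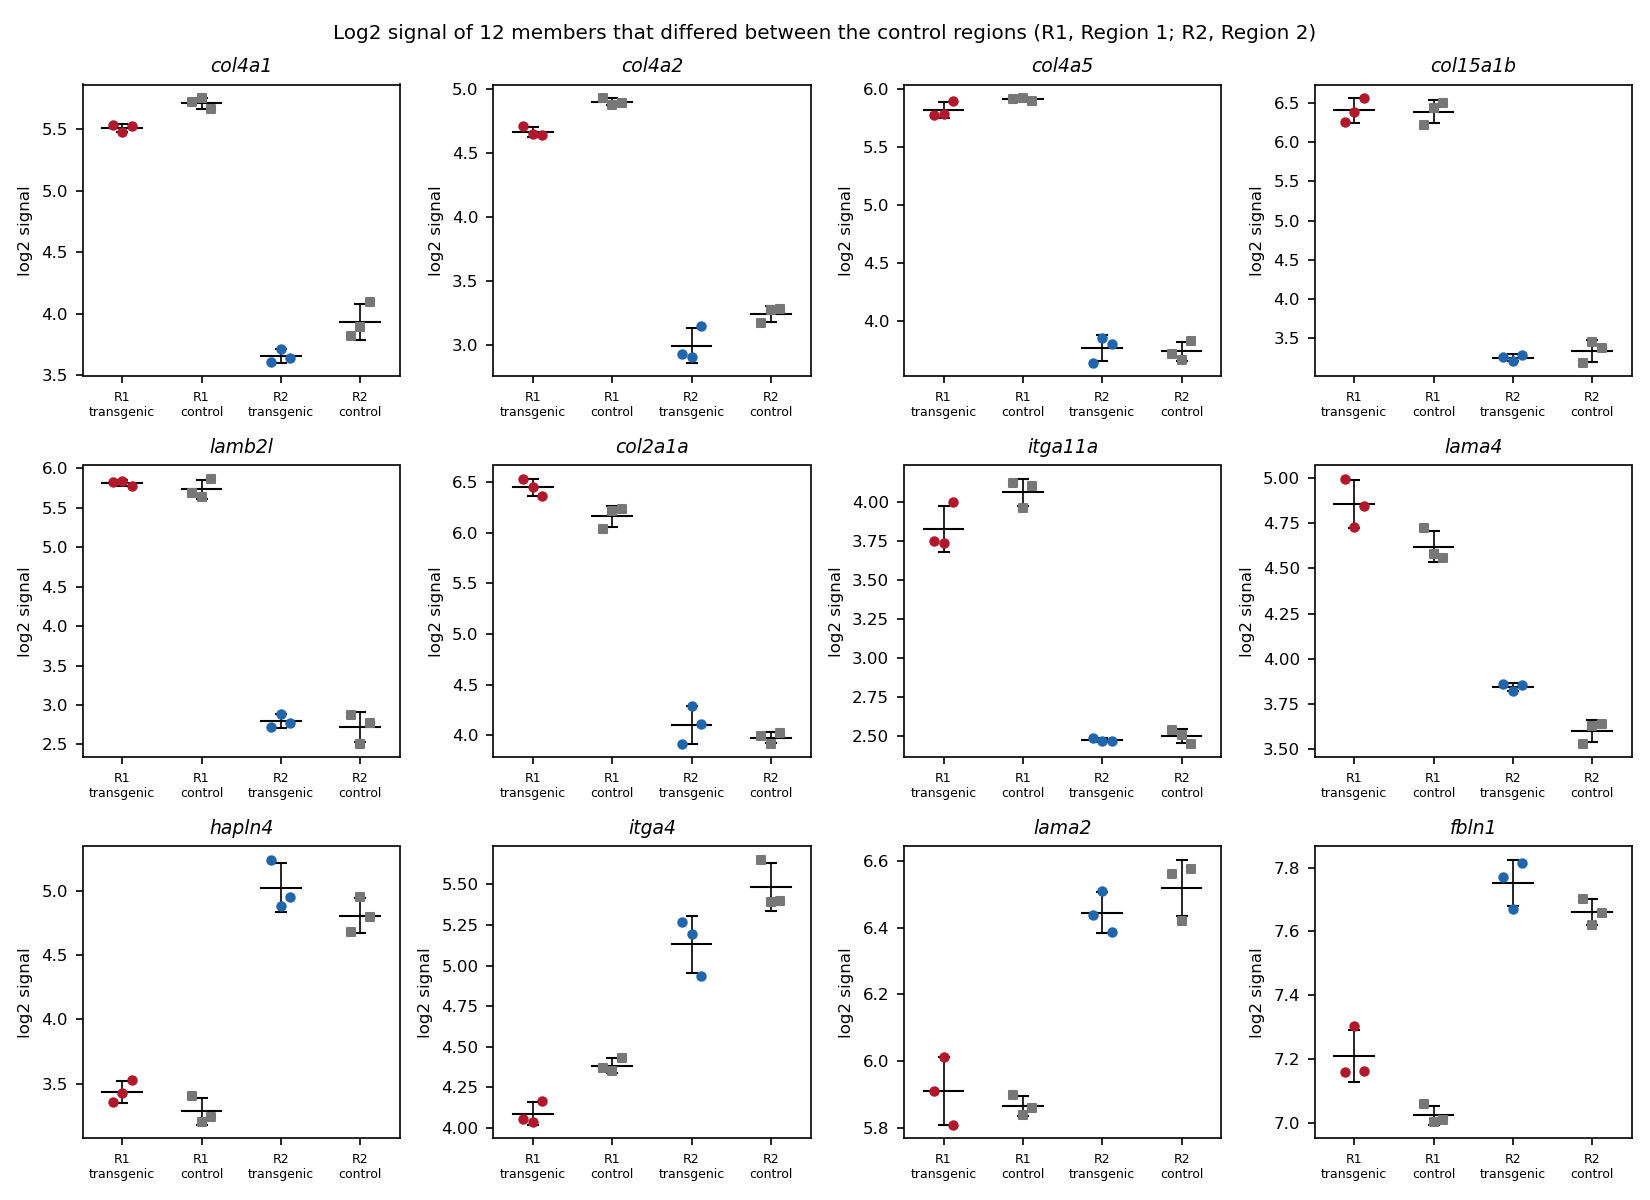
Log2 signal (vertical axis) of 12 members that differed between the control regions, on each array; circles are transgenic arrays, squares control arrays, long bars group means and whiskers SD (n = 3). The Region 1 arrays lie above the Region 2 arrays in the first 8 panels (*col15a1b*, 6.22 to 6.50 against 3.18 to 3.45 on control arrays) and below them in *hapln4*, *itga4*, *lama2* and *fbln1*.

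Other genes that make, trim or sense the matrix were counted from 4 lists. Of 29 measured genes of collagen processing, 1 rose in Region 1: *p4ha1a*, which encodes a prolyl 4-hydroxylase subunit, read 7.51, 7.61 and 7.53 on the transgenic arrays, against 7.07, 7.09 and 7.0 on the control arrays (difference 0.50, SE 0.067, adjusted p = 0.0475). In Region 2, 1 fell: the lysyl hydroxylase gene *plod2* read 8.54, 8.50 and 8.59 on the transgenic arrays, against 9.08, 9.03 and 9.10 on the control arrays (difference -0.52, SE 0.067, adjusted p = 0.0420). The groups of arrays did not overlap in either case. In Region 1 *plod2* had a difference of -0.090 (SE 0.060), and the test of the difference between the effects gave -0.43 (adjusted p = 0.0664).

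Of 29 matrix proteases and inhibitors, 0 rose and 1 fell in Region 1 and none was called in Region 2. *adamts18*, a secreted metalloprotease gene, read 5.17, 5.14 and 5.33 on the Region 1 transgenic arrays, against 5.79, 6.0 and 5.83 on the Region 1 control arrays (difference -0.66, SE 0.089, adjusted p = 0.0475). In Region 2 it read 7.92, 7.88 and 7.96 on the transgenic arrays, against 7.70, 7.66 and 7.58 on the control arrays (difference 0.27, SE 0.070, adjusted p = 0.222). The effects differed by 0.93 (SE 0.11, adjusted p = 0.00941).

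Of 67 other matrix proteins, 0 were called in Region 1 and 1 fell in Region 2. *frem3*, of the Fraser complex family of basement membrane proteins, read 3.11, 3.42 and 3.52 on the Region 2 transgenic arrays, against 4.53, 4.52 and 4.44 on the Region 2 control arrays (difference -1.15, SE 0.12, adjusted p = 0.0209). In Region 1 it read 4.47, 4.47 and 4.44 on the transgenic arrays, against 4.67, 4.60 and 4.83 on the control arrays (difference -0.24, adjusted p = 0.299), and the effects differed by -0.91 (adjusted p = 0.0418). Of 38 focal adhesion and dystroglycan genes, none was called in either region. Between the control regions, 10 collagen processing genes were higher and 4 lower in Region 1, 7 proteases and inhibitors were higher and 8 lower, 14 focal adhesion genes were higher and 3 lower, and 22 other matrix proteins were higher and 6 lower, where 26.0% and 11.7% of the named genes were called. These counts moved with the scaling, chosen as a check after the values had been seen. After median centring they were 9 and 6 for collagen processing, 6 and 12 for proteases and inhibitors, 10 and 9 for focal adhesion genes and 17 and 14 for other matrix proteins. After quantile normalization they were 9 and 4, 6 and 11, 12 and 7, and 16 and 9, in the same order.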

How the data were processed

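The authors processed 12 Affymetrix Zebrafish Gene ST arrays with Affymetrix Expression Console and Transcriptome Analysis Console and deposited log2 values for 75212 probe sets. How probes were summarized and normalized is not stated in the sources used here. Symbols came from the platform annotation: 29528 probe sets had 1 symbol, 1845 several and 43839 none. Groups came from the sample labels, and 0 columns were left out. The methods call the replicates biological, so p-values measure the spread between pools, and 3 arrays a group limit the precision.

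Each region was fitted on 6 arrays with limma 3.58.1 in R 4.3.3 (lmFit, eBayes). The differences between the effects, between control regions and between transgenic regions, and the mean effect, used all 12 arrays, with a mean for each of the 4 groups. All tests were two-sided, with Benjamini-Hochberg adjustment of p over all 75212 probe sets. The fit was tested on simulated data with planted transgenic differences larger than any of the members. It does not show how often differences of the members' size would be called. The members, lists and tests were chosen with earlier results of these data known. Genes were named by a rule: members called with the transgene, up to 3 per role with the smallest p in each region, the highest mean per role, up to 3 per role and direction between control regions, fixed genes of somite borders, members nearest the threshold, paralog pairs with 1 call, and list genes called with the transgene. Neighbours came from the order of protein-coding genes in GRCz12tu. Python 3.11.15 was used for annotation and figures. Alternatives are given in the closing section.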

Additional observations from a re-analysis of the deposited data

Results flagged for a closer look

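These 3 genes had transgenic effects that differed between the regions by the test of the difference itself, Region 2 minus Region 1. The *dmrt2a* probe set gave 1.04 (adjusted p = 0.000825), with an effect of 1.40 in Region 2 and 0.35 in Region 1. *adamts18* gave 0.93 (adjusted p = 0.00941), with all 3 transgenic arrays above the control arrays in Region 2 and all 3 below them in Region 1. *frem3* gave -0.91 (adjusted p = 0.0418), with an effect of -1.15 in Region 2 and -0.24 in Region 1. None of the 111 matrix and integrin members did so.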

How the results depend on the processing

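In Region 1 the 1 member called became 4 with all 12 arrays in the fit and with only probe sets of 1 symbol. The count was 3 with a trend and robust spread and with only brighter probe sets, 2 without the unnamed low-numbered probe sets, and 0 past 2-fold. In Region 2 the 1 became 4 with all 12 arrays, with brighter probe sets and with probe sets of 1 symbol. The count was 3 with a trend and robust spread and without the unnamed probe sets, and 2 with the one-way ANOVA of the methods and with array weights. It was 0 past 2-fold, after quantile normalization, median centring, with the smallest-mean probe set or with the mean of all probe sets. The mean effect over both regions, with 12 calls, is another comparison and not a count of either region. The calls over all probe sets of a fit moved too. In Region 1 they went from 381 to 1181 with all 12 arrays and to 955 with probe sets of 1 symbol. In Region 2 they went from 352 to 1300 and 822. Leaving out 1 array gave 0 to 0 calls in either region and for the difference between the effects, and 51 to 59 between the control regions. The difference between the effects had 1 call with only probe sets of 1 symbol, *col28a1b*. Between the control regions the 61 became 36 with brighter probe sets, of which only 50 are members, and 14 past 2-fold. Same-number arrays correlated in their deviations at -0.055 to 0.0078 between transgenic and control pieces, where 0 of 6 were closest to their own number. Between the regions they correlated at 0.017 to 0.079 (all positive), never over 0.1. There, 3 of 3 transgenic and 2 of 3 control arrays were closest to their own number. Numbers were not taken as pairs in the main fits, so tests across the regions treat same-number arrays as independent. The sources do not say whether the regions of 1 number share embryos. The replicate number was also fitted as a block within each region, which pairs transgenic with control arrays. That block does not model embryos shared between the regions. With it, limma called 0 members in Region 1, 0 in Region 2, 0 for the difference and 57 between the control regions. Of the 12 calls of the mean effect, 3 were left, *hapln1b*, *itgb4* and *sparc*. That effect had 6 members higher and 7 lower with a trend and robust spread, 8 and 8 with brighter probe sets, 6 and 11 with probe sets of 1 symbol, 4 and 6 with median centring, 1 and 4 with the smallest-mean probe set and 2 and 5 with the mean of all. Turned signs among values called before or after the change were counted for the members named by the rule. With the smallest-mean probe set, signs turned for 4 of these members (0.033 for *itgb4* in Region 2, and between control regions 0.15 for *itgb4*, 0.58 for *fbln2*, -0.045 for *col5a3b* and -0.18 for *vcana*). The sign also turned for *col28a1b* between transgenic regions (-0.36). Outside that count, the smallest-mean probe set of *col4a6* also turned sign between control regions (-0.18, from 1.57). For the members named by the rule, 5642 values under alternatives kept their direction and side of the threshold, 324 turned sign with a call in neither fit, 92 lost and 91 gained a call, and 6 turned sign with a call. The cause of these changes was not tested, beyond the smaller number of probe sets or arrays in some of the fits. Fits without unnamed probe sets, between transgenic regions and of the mean effect were added after the data had been seen.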
